A study of Mus musculus with 6 samples.

Results

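Liver plasma protein and enzyme transcripts are described here in kidney arrays of mice without ERRα (estrogen-related receptor alpha, gene Esrra) and of wild-type mice. The set holds 42 genes known for high expression in hepatocytes. It was compiled because such transcripts stand out in 1 of the 6 arrays, the library labelled ERRa KO replicate 3, so the high values of that array chose the members and are given as a description without a test. Of the 42 members, 37 have a probe set of their own among the 18193 genes measured. Serpina1a and Trf were read only by probe sets shared with another gene, and Gc, Serpina3k and C3 are not analysed here.

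Samples were male mice aged 2 to 3 months on a standard diet and a light-dark cycle. There were 3 WT and 3 ERRa KO samples, and for each both kidneys were pulverised together before RNA extraction, so that all cell types of the organ are mixed in a value. The labels do not give the strain, the part of Esrra that was removed or whether the receptor was absent from every tissue. They call the replicates biological without naming separate animals, so p-values measure the spread between these samples. In such bulk RNA, fewer cells of a type and less RNA per cell cannot be told apart.

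Values are log2 expression after RMA (robust multi-array average), 1 array per sample, and the number of arrays limits their precision. Esrra itself read 9.43, 9.43 and 9.52 in the WT arrays and 6.66, 6.51 and 6.41 in the ERRa KO arrays, in the order of the replicates, which matches the sample labels used here. A second deposited table exchanges the genotype column heads for 45101 of 45101 probe sets, and there the array described below as ERRa KO replicate 3 is headed WT replicate 3. Pairs among the other 5 arrays correlated at 0.9964 to 0.9982 across genes. ERRa KO replicate 3 correlated with those arrays at 0.9941 to 0.9959, below every pair without it.

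Hepatocytes make most proteins of blood plasma: the carriers albumin, hemopexin and retinol-binding protein, the clotting factors, the protease inhibitors that restrain them, and much of complement. Inside the cell they run the urea cycle and break down tyrosine, tryptophan and methionine. A number of these genes are also transcribed in the kidney, whose proximal tubule takes up filtered plasma proteins. The liver genes are driven by shared transcription factors, among them HNF1, HNF4, FOXA and C/EBP proteins.

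The promoters of 6 members are shown as examples. Alb, Fabp1 and Hpx had the 3 largest differences between arrays, Fgb the largest among the fibrinogen chains, Bhmt was the member that changed between genotypes, and Hpd did not stand out in ERRa KO replicate 3. Each is the 150 bases just before the RefSeq transcript start in GRCm38.p6, written 5′ to 3′ on the strand of the gene. Capitals mark letters of the motifs searched on both strands: GTTAAT (HNF1), CAAAGTC (HNF4), TGTTTAC (FOXA), TTGCAA (core of the C/EBP element), TATAAA (the box near many starts) and AAGGTCA (core of the element that ERR receptors bind as monomers).
Alb, chr5:90460720-90460869, plus strand: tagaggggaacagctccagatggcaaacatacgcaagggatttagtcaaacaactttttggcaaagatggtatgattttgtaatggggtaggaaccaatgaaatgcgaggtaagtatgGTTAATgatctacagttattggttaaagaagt
Fabp1, chr6:71199729-71199878, plus strand: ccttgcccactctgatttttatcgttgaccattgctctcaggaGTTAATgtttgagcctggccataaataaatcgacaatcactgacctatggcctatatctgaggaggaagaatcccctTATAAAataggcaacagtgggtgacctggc
Hpx, chr7:105600117-105600266, minus strand: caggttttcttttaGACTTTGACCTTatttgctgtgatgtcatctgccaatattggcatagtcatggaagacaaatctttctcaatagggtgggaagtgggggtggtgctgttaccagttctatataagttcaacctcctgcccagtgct
Fgb, chr3:83049864-83050013, minus strand: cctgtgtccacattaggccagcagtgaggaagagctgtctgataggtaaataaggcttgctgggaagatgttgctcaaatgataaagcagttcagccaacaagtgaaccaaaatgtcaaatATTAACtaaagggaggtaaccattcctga
Bhmt, chr13:93637759-93637908, minus strand: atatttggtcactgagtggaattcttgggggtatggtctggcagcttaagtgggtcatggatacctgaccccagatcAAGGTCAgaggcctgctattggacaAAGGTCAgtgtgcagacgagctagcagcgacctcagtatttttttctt
Hpd, chr5:123182724-123182873, minus strand: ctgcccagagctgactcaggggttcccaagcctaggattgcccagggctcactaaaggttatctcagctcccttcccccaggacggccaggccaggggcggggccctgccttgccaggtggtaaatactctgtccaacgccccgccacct

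The Alb, Fabp1 and Fgb promoters hold the HNF1 letters, in Fgb on the opposite strand, and Fabp1 also holds a TATA box. In Hpx the HNF4 and ERR letters overlap on the opposite strand, the Bhmt promoter holds the ERR letters at 2 places, and that of Hpd holds none of the motifs. RefSeq promoters were found by symbol for 33 of the 42 members, and the 250 bases before the start were searched. The HNF1 letters were present in 27.3% of them (9 of 33), against 7.49% of 27025 genes with a promoter. The HNF4 letters were in 12.1% against 4.33%, the FOXA letters in 6.06% against 3.54%, the C/EBP core in 15.2% against 6.09% and the TATA box in 15.2% against 14.3%. The ERR letters were in 12.1% against 4.7%, namely in Ambp, Hpx, Bhmt and Mbl2. None of the 6 motifs was found for 14 of the 33. These matches describe the letters and were not tested.

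In ERRa KO replicate 3, 30 of the 37 measured members read highest of the 6 arrays (16.0% of all genes did), and none read lowest. A difference of 2-fold or more above the mean of the other 5 arrays was reached by 25 of 37 (0.434% of all genes), and one of 4-fold or more by 19 (0.225% of all genes). The median difference was 2.14 on the log2 scale, against -0.02 over all genes. A gene with several probe sets is given by the brightest on average. When brightness was taken over the other 5 arrays in place of all 6, 1 member (Tdo2) had another probe set, 25 members were still 2-fold or more higher (0.429% of all genes), and the median was 1.69. Since the members were chosen on this contrast, nothing is read from these shares. In the other 5 arrays the median of the members lay between -0.04 and 0.05 around their common mean, so that those arrays did not separate.

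**Figure D1:**
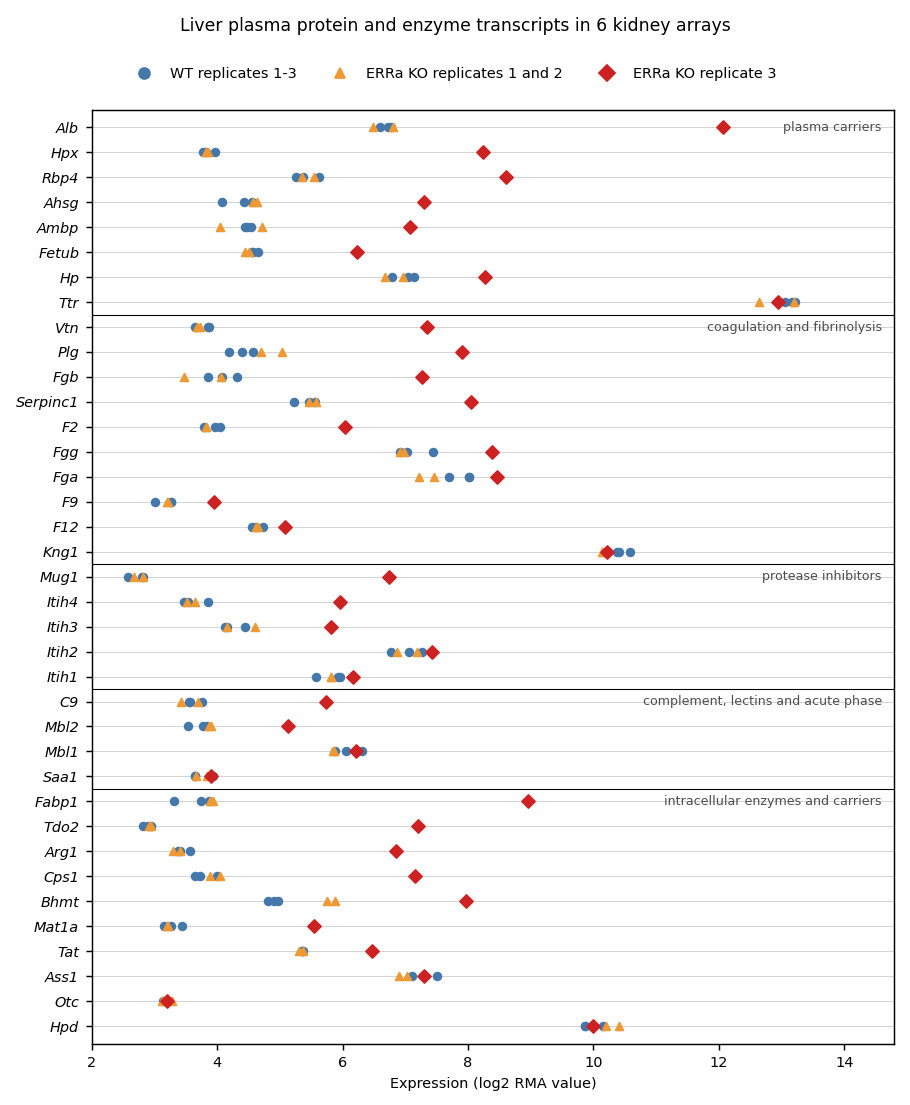
Log2 RMA values of the 37 measured members in the 6 arrays, grouped by role and ordered within a role by the difference of ERRa KO replicate 3 from the other arrays. Each symbol is 1 array; the diamonds of ERRa KO replicate 3 lie to the right of the other 5 symbols for 30 members, and among them for Ttr, Kng1, Hpd, Otc, Ass1, Saa1 and Mbl1.

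Of the plasma carriers, 7 of 8 measured genes were 2-fold or more higher in ERRa KO replicate 3, with a median log2 difference of 2.73. Alb, which encodes albumin, the most abundant plasma protein, read 6.77, 6.59 and 6.72 in WT, 6.48 and 6.80 in ERRa KO replicates 1 and 2, and 12.07 in ERRa KO replicate 3. That array lay 42.3-fold above the mean of the other 5, the largest difference of all 18193 genes, while the other 5 arrays differed among themselves by at most 0.32 on the log2 scale. Hpx, encoding the heme scavenger hemopexin, read 3.97, 3.77 and 3.83 in WT, 3.85 and 3.83 in ERRa KO replicates 1 and 2, and 8.23 in replicate 3, which was 20.9-fold above the others.

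Rbp4, the carrier of retinol in plasma, read between 5.26 and 5.63 in the other 5 arrays and 8.60 in ERRa KO replicate 3. Ahsg and Fetub, encoding the fetuins, had log2 differences of 2.84 and 1.69, and Ambp, the precursor of alpha-1-microglobulin and bikunin, one of 2.63. Hp, encoding the hemoglobin-binding haptoglobin, read 8.28 there against 6.68 to 7.13 elsewhere.
The exception was Ttr, encoding transthyretin, a carrier of thyroxine and of retinol-binding protein. It read 13.21, 13.05 and 13.17 in WT and 12.65, 13.20 and 12.94 in ERRa KO, so that replicate 3 lay inside the range of the other arrays, as it did for its 3 other probe sets, with log2 differences of -0.21 to -0.05. The probe set shared by Trf, encoding transferrin, and Srprb read 9.20 in ERRa KO replicate 3 and 6.94 to 7.53 elsewhere, and which gene it read cannot be told apart.

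Among 10 coagulation and fibrinolysis genes 6 were 2-fold or more higher in that array (median log2 difference 1.74), and the fibrinogen chains differed from each other. Fgb, the beta chain, read 4.31, 3.86 and 4.07 in WT, 3.47 and 4.06 in ERRa KO replicates 1 and 2, and 7.26 in replicate 3, a log2 difference of 3.31. Fgg, the gamma chain, differed by 1.33 and Fga, the alpha chain, by 0.78. The 3 genes neighbour each other on chromosome 3 and their products assemble into 1 molecule. Fga and Fgg values of ERRa KO replicate 3 lay 0.44 and 0.95 above the next array, and that of Fgb 2.95. Their levels were unlike: the other 5 arrays averaged 7.68 for Fga, 7.05 for Fgg and 3.95 for Fgb. The same rise in signal gives a smaller log2 difference at a higher level, so these differences do not show that the chains rose unequally.

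Plg, encoding the clot-dissolving protease precursor plasminogen, read 7.91 in ERRa KO replicate 3 and 4.19 to 5.03 elsewhere. Vtn, encoding the adhesive glycoprotein vitronectin, read 7.34 against 3.64 to 3.86, and its other probe set was 2.17 higher there.
Serpinc1, encoding antithrombin, and F2, encoding prothrombin, were higher by 2.59 and 2.15. The differences of F9 (0.76) and F12 (0.45), clotting factors of the intrinsic pathway, stayed under 2-fold. Kng1, encoding the kinin precursor kininogen, did not follow: it read 10.38, 10.41 and 10.58 in WT and 10.15, 10.14 and 10.21 in ERRa KO, with replicate 3 between the genotypes' other values.

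Protease inhibitor transcripts gave a median log2 difference of 1.51, with 3 of 5 measured members 2-fold or more higher. Mug1, encoding the broad protease inhibitor murinoglobulin, read 2.81, 2.81 and 2.57 in WT, 2.68 and 2.82 in ERRa KO replicates 1 and 2, and 6.73 in replicate 3. A further probe set that it shares with Mug2 and Mug-ps1 differed by 2.59 on the log2 scale. Among the heavy chain genes of the inter-alpha-trypsin inhibitor family, the log2 difference was 2.35 for Itih4, 1.51 for Itih3, 0.40 for Itih2 and 0.35 for Itih1. The probe set of Serpina1a, an alpha-1-antitrypsin gene, is shared with Serpina1d and read 10.20 in that array against 9.17 to 10.21 elsewhere, inside their range.

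Of 4 measured complement, lectin and acute phase genes, C9, the pore-forming complement component, was higher by 2.14 and the mannose-binding lectin gene Mbl2 by 1.34. The other lectin gene, Mbl1, read 6.21 in ERRa KO replicate 3 and up to 6.32 elsewhere. Saa1, which encodes serum amyloid A and is strongly induced in liver by inflammation, read 3.94, 3.65 and 3.65 in WT and 3.66, 3.84 and 3.90 in ERRa KO. Its values did not separate any array, and its other probe set differed by 0.21.

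Of 10 transcripts of intracellular enzymes and carriers 7 were 2-fold or more higher, with a median log2 difference of 2.49 (1.87 with the Tdo2 probe set that was brightest in the other 5 arrays). Fabp1, the fatty acid-binding protein of liver, read 3.87, 3.74 and 3.30 in WT, 3.89 and 3.93 in ERRa KO replicates 1 and 2, and 8.96 in replicate 3, 37.2-fold above the others. Its other probe set read 8.67 there and 2.91 to 3.16 elsewhere. For Tdo2, which opens tryptophan breakdown, the difference depended on the probe set. The one used here, whose mean was highest only through ERRa KO replicate 3, read 7.20 in that array and 2.82 to 2.95 elsewhere. The one brightest in the other 5 arrays read 4.82 against 3.10 to 3.60, a log2 difference of 1.46, and the last differed by 0.73.

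The urea cycle genes split. Cps1, the entry enzyme, read 7.16 against 3.65 to 4.05 and Arg1, the last enzyme, 6.85 against 3.30 to 3.56. Otc depended on the probe set: the one with the highest mean differed by 0.01, the others by 1.30 and 0.74. Ass1, which the kidney uses to make arginine, differed by 0.13, and a probe set it shares with Gm5424 read 13.67 in ERRa KO replicate 3 and 13.65 to 13.74 elsewhere.

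In methionine and tyrosine metabolism, Bhmt, which remethylates homocysteine from betaine, was higher by 2.70, Mat1a, which makes S-adenosylmethionine, by 2.29 and the aminotransferase gene Tat by 1.12. Hpd, the next enzyme of tyrosine breakdown, read 9.99 in ERRa KO replicate 3 and 9.86 to 10.41 elsewhere.

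Further hepatocyte genes outside the members, listed with earlier results of these data known, were set beside them. Of 38 measured genes for other plasma proteins 28 read highest in ERRa KO replicate 3 and 11 were 2-fold or more higher (median log2 difference 0.49). Of 28 other hepatocyte enzymes and transporters 15 read highest and 10 were 2-fold or more higher (median 0.44). Over all genes outside the members, on a list or not, the 10 largest differences were those of Hamp, the iron hormone hepcidin (4.27), the apolipoproteins Apoa1 (3.75), Apoc1 (3.50) and Apoa2 (2.89), Serpina1c (3.26), the major urinary protein gene Mup3 (3.10), Ugt2b1 (2.95), Cyp3a11 (2.89), the paraoxonase Pon1 (2.80) and Akr1c6 (2.79). Apoc1, Ugt2b1, Pon1 and Akr1c6 are on none of the lists. Of 79 genes 2-fold or more higher in that array, 25 were members, 25 were on another liver list and 29 on no liver list. The lists also held genes that were not higher in that array. Cyp2e1 read 13.80, inside the range of the other arrays (13.68 to 13.81), and Proc, encoding protein C, read 11.02, below all of them (11.06 to 11.13). These genes read high in all arrays, as did Ttr, Kng1, Hpd and the probe set shared by Ass1 and Gm5424. At such levels the same rise in signal gives a smaller log2 difference, so their values cannot show a small rise. Why these genes were not higher was not tested.

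Pericentral hepatocyte genes had a median difference of 0.68 over 12 genes and periportal ones 0.02 over 9. Of these, 4 of 12 and 2 of 9 were 2-fold or more higher. Both lists share genes with the list of other enzymes and transporters. Pck1 and Cdh1, which lead the periportal list, averaged 12.79 and 10.09 over all arrays. Cyp2e1, Glul and Oat, which lead the pericentral list, averaged 13.76, 11.36 and 10.97, so both medians partly reflect genes high in every array. The dimmest periportal genes, Hal (3.68 on average), Aldh1b1 (3.85) and Hsd17b13 (3.86), differed by 1.03, -0.15 and -0.09. A difference between the zones was not tested. The lists of male-biased (median 0.13) and female-biased liver genes (-0.05) and of liver transcription factors (0.12) had medians near 0, with Hnf4a at 12.42 against 12.30 to 12.47. The male-biased median also partly reflects genes high in every array, led by Ugt2b38 and Cyp7b1 (13.55 and 12.75 on average). The dimmest male-biased genes, Mup3, Elovl3 and Hsd3b5, were higher by 3.10, 0.97 and 0.95. The dimmest female-biased genes, Cyp3a44, Cyp2b9 and Sult3a1, differed by 0.09, -0.13 and -0.05.
In the acute phase list outside the members, 3 of 14 were 2-fold or more higher (median 0.29). This list shares genes, Hamp among them, with that of other plasma proteins. Lcn2 lay 0.73 below the mean of the other 5 arrays, at 5.21 against 5.39 to 6.82. The 5 fetal liver genes had a median of -0.01.

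Markers of other liver cell types did not stand out in the array. Medians were 0.05 for 8 Kupffer cell genes, 0.00 for 8 genes of liver sinusoidal endothelium, 0.07 for 8 stellate cell genes and -0.07 for 7 cholangiocyte genes, and in each list 0 genes were 2-fold or more higher. Summed on the linear scale, the Kupffer cell list gave 647 in ERRa KO replicate 3 and 608 to 850 in the other 5 arrays. Slc40a1, at 8.88 on the log2 scale there and 8.79 to 9.45 elsewhere, makes up most of this sum. The sum therefore cannot show a small change in the dimmer genes of the list. Of the kidney's own cells, 15 proximal tubule genes, led by Kap, had a median of -0.01 and a sum of 116152 against 112350 to 117908, and 14 other nephron genes a median of 0.01. Lists of red blood cells, adipocytes, adrenal cortex and medulla, exocrine pancreas, lymphoid cells, intestine and skeletal muscle had medians between -0.05 and 0.10, each with 0 genes 2-fold or more higher. The same linear sum over the 10 intracellular members was 2469 in ERRa KO replicate 3 and 1202 to 1647 in the other 5 arrays. Since that array chose the members, nothing is read from this sum. Over the 28 other hepatocyte enzymes and transporters the sum was 54283 against 53403 to 55309. Most of it comes from genes high in every array, led by Fbp1 and Cyp2e1. Whether RNA of hepatocytes or transcription in the kidney had a part in the high values was not tested.

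**Figure D2:**
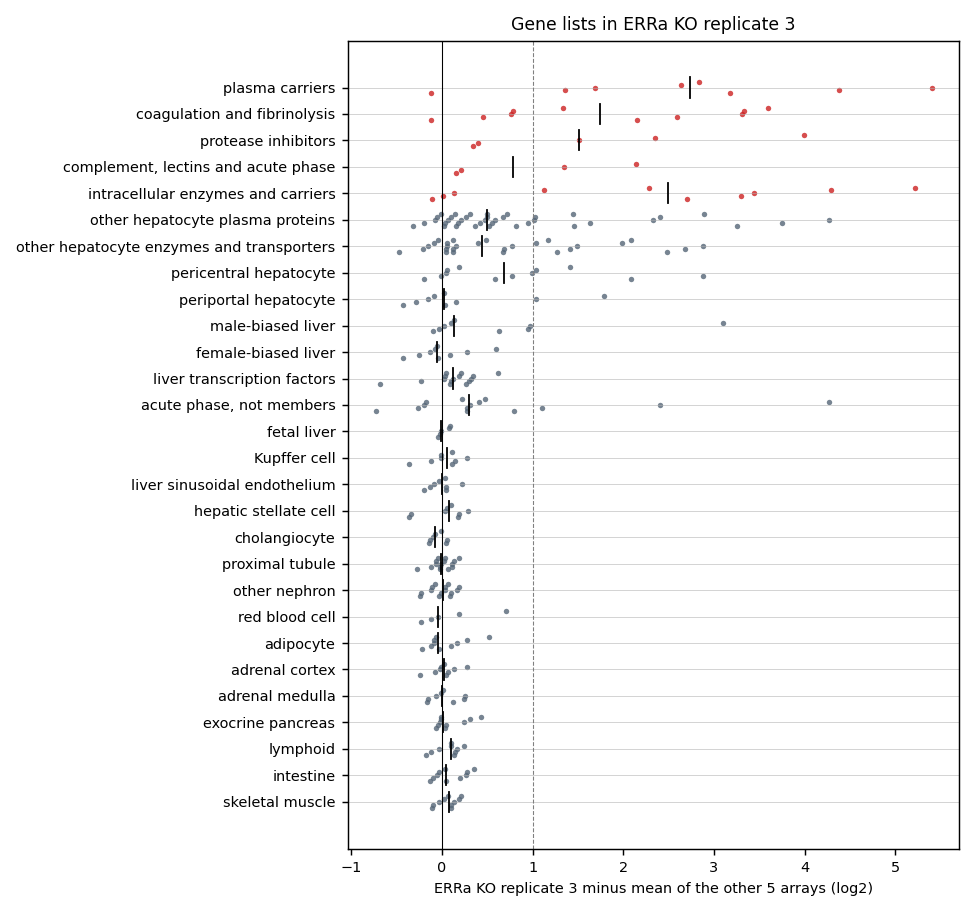
Log2 difference of ERRa KO replicate 3 from the mean of the other 5 arrays for each measured gene (points) of the 5 member groups (red) and the other lists (grey), with the median of each list as a vertical bar and a dashed line at 2-fold. Medians lie between 0.78 and 2.73 for the member groups, at 0.49 and 0.44 for the other hepatocyte lists, and between -0.07 and 0.10 for the lists of other cell types.

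Among genes with their lowest value in that array, the 5 most negative differences were those of the cytokine signalling genes Cish (-1.93) and Socs2 (-1.85), of Esrra (-1.90), Synpr (-1.81) and the transcriptional repressor gene Nfil3 (-1.54). Esrra, the deleted gene, read nearly as low in the other ERRa KO arrays, and Cish (6.90) and Socs2 (6.93) varied among the other 5 arrays from 7.57 to 9.87 and from 7.38 to 9.63. Synpr read 3.99 against 5.01 to 6.63 and Nfil3 5.47 against 6.43 to 7.82. No member was 2-fold or more lower.

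The comparison of the genotypes, for which the study was designed, was made without ERRa KO replicate 3, since that array chose the members. With 3 WT and 2 ERRa KO arrays, 1 of the 37 members changed (limma, adjusted p under 0.05), against 39 of 18193 genes (0.214%). Of the members 22 read lower and 15 higher in ERRa KO, with a median log2 difference of -0.01 (0.01 over all genes). The unadjusted p was under 0.05 for 6 members (12.4% of all genes). The values of the genotypes did not overlap for 11 of 37 members (30.7% of all genes), a share close to the background.

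Bhmt was the member that changed. It read 4.82, 4.97 and 4.90 in WT (4.90 ± 0.08, SD, n = 3) and 5.75 and 5.88 in ERRa KO replicates 1 and 2. Both ERRa KO values lay above all WT values, and the gene rose by 0.92 on the log2 scale (SE 0.08, limma adjusted p = 0.0158). ERRa KO replicate 3, outside this fit, read 7.96. The call rests on all 5 arrays: leaving out any 1 of them (WT replicate 1, 2 or 3, ERRa KO replicate 1 or 2) gave differences of 0.85 to 0.98 with limma adjusted p-values of 0.0636 to 0.101. With replicate 3 added the difference was 1.63 and the limma adjusted p 0.258. In the authors' deposited table, over all 6 arrays, the log2 change of Bhmt is also 1.63, with an unadjusted p of 0.0859.

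The other 5 members with an unadjusted p under 0.05 did not pass the adjustment. Fga read 8.01, 7.69 and 8.02 in WT and 7.23 and 7.45 in ERRa KO replicates 1 and 2, a difference of -0.57 (SE 0.12, limma adjusted p = 0.154). Its value in replicate 3 was 8.46, above all WT values, so that with all 6 arrays the difference was -0.19. Kng1 differed by -0.32 (SE 0.08, limma adjusted p = 0.185), and here all 3 ERRa KO arrays, replicate 3 included, read below the WT arrays. Its dimmer probe set read 4.68, 4.69 and 5.05 in WT and 4.41, 4.23 and 4.99 in ERRa KO, with replicate 3 inside the WT range.

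Plg read 4.58, 4.19 and 4.40 in WT and 4.70 and 5.03 in ERRa KO replicates 1 and 2 (0.47, SE 0.14, adjusted p = 0.247). Hpd differed by 0.35 (SE 0.12, adjusted p = 0.301) and Ass1 by -0.33 (SE 0.12, adjusted p = 0.333), each with replicate 3 inside the WT range. The probe set shared by Ass1 and Gm5424 differed by 0.06, in the other direction.

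**Figure D3:**
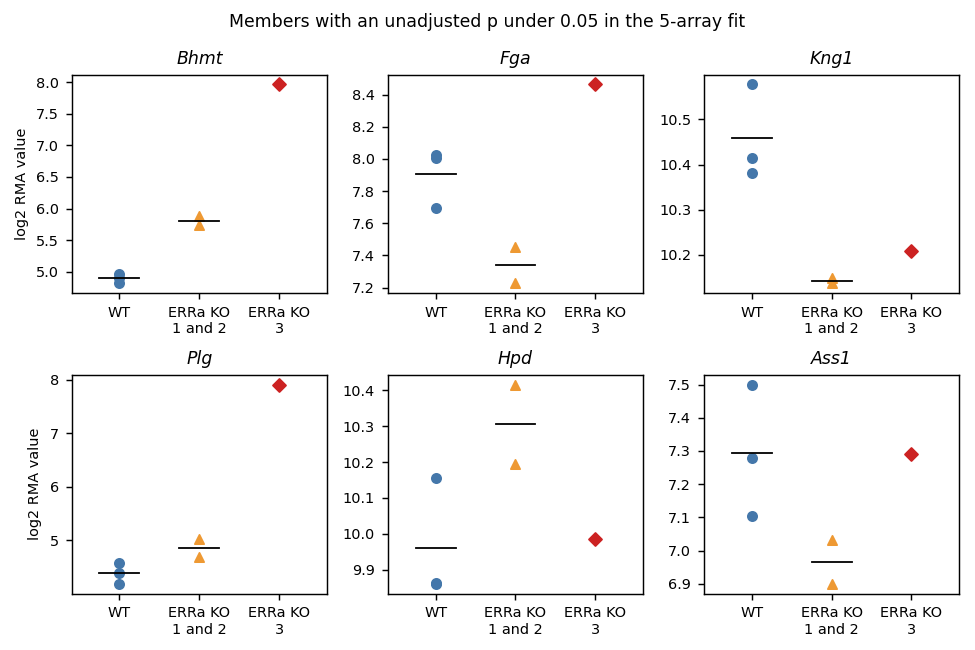
Log2 RMA values of the 6 members with an unadjusted p under 0.05 in the fit without ERRa KO replicate 3, by group, with each scale set to its gene and the horizontal bars at the group means. Bhmt passed the adjusted threshold; ERRa KO replicate 3 (diamonds) lies far above both groups for Bhmt and Plg and beside the ERRa KO arrays for Kng1.

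With all 6 arrays as labelled, 0 of 37 members were called by limma (0.495% of all genes were). Bhmt and Kng1 were the 2 members whose unadjusted p was under 0.05 (12.4% of all genes). The median difference of the members was then 0.63 on the log2 scale, 32 of 37 read higher in ERRa KO, and the median SE was 0.52 against 0.11 without replicate 3. Alb shows the contrast: its difference was 1.76 (SE 1.32, adjusted p = 0.639) with replicate 3 and -0.06 (SE 0.11, adjusted p = 0.882) without it. For Fabp1 the values were 1.96 (SE 1.23, adjusted p = 0.578) and 0.27 (SE 0.16, adjusted p = 0.547). Groups did not overlap for 6 of 37 members, Ahsg, Plg, Kng1, Mbl2, Fabp1 and Bhmt (18.7% of all genes), and the rule that chose them used 1 of those arrays.

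**Figure D4:**
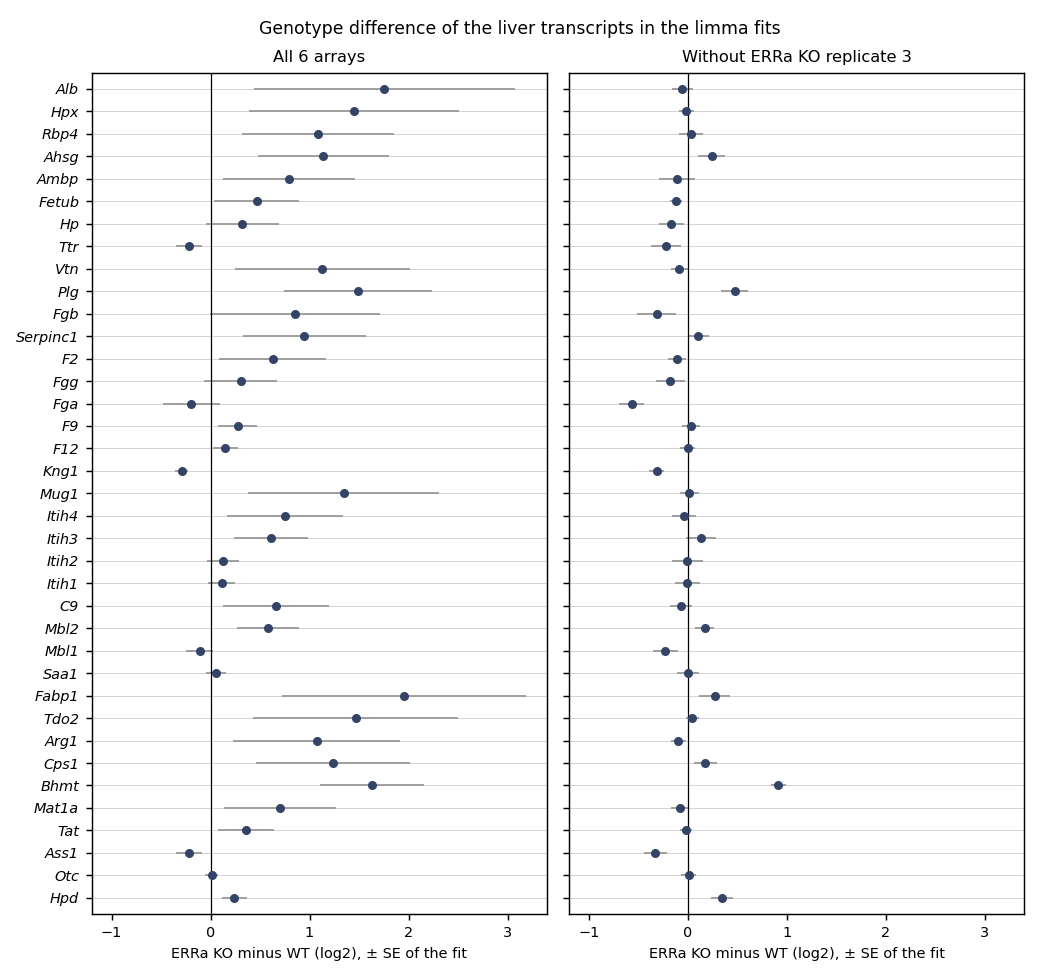
Log2 difference of ERRa KO from WT for the 37 measured members, with the standard error of the limma fit as bars, in all 6 arrays (left) and without ERRa KO replicate 3 (right). With 6 arrays the median is 0.63 and the median SE 0.52, and without replicate 3 they are -0.01 and 0.11, with Bhmt at 0.92 apart from the rest.

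From the liver lists outside the members, limma called Azgp1, Cyp2d9, Hao2, Ctsc and, of the stellate cell list, Ecm1 with all 6 arrays. Their log2 differences of ERRa KO replicate 3 from the other 5 arrays were 0.49, 0.63, 0.59, -0.44 and -0.34, all under 2-fold. Without that array Azgp1 and Cyp2d9 (limma adjusted p = 0.0137) passed, while Hao2 (adjusted p = 0.0942), Ctsc (0.0635) and Ecm1 (0.0859) did not. Azgp1, a secreted glycoprotein gene, read 9.67, 9.69 and 9.64 in WT and 10.78, 10.97 and 10.64 in ERRa KO, so that replicate 3 was the lowest of the ERRa KO arrays, and its rise was 1.21 without that array (limma adjusted p = 0.00621) and 1.13 with it (adjusted p = 0.00462).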

How the data were processed

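Total RNA of whole kidneys (3 WT and 3 ERRa KO samples) was hybridised as biotin-labelled cRNA, 1 array per sample. The authors deposited log2 values, and the submitters' processing notes name RMA as the method; the labels do not give its settings. RMA quantile normalizes the arrays (medians 5.01 to 5.06) and compresses low values, and the deposited values hold no detection call. A second deposited table gives the same values with exchanged genotype heads, the authors' log2 fold change, which follows the sample labels used here, and an unadjusted p-value with no test named.

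Of 45101 probe sets, 64 controls were left out, 34945 name 1 gene in the platform annotation, 932 several and 9160 none; 34741 were matched by gene ID to GRCm38.p6 names. Where a gene had several probe sets, the one brightest on average over the 6 arrays stood for it. limma 3.58.1 in R 4.3.3 (lmFit, eBayes, two-sided) was fitted to all 18193 genes, with Benjamini-Hochberg adjustment over all of them and 0.05 as the threshold. No pseudocount and no filter were used. The fit was also run on simulated data with independent noise, which cannot speak to an outlying array. Differences are log2, ERRa KO minus WT, and SE is the standard error from limma.

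Members and gene lists were chosen with earlier results of these data known. Named were the members, the 10 largest and 5 most negative differences of ERRa KO replicate 3 outside them (among genes highest or lowest in that array), liver-list genes called with 6 arrays (of which Azgp1 is given in full), and leading markers. Among list genes, Proc, Cyp2e1, Lcn2 and the dimmest periportal, male-biased and female-biased genes were picked after their values were seen. Alternatives were probe sets chosen without ERRa KO replicate 3 (added after seeing the data), all 6 arrays, a replicate block, single arrays left out, other probe set rules, filtering, normalization and weights.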

Additional observations from a re-analysis of the deposited data

How the results depend on the processing

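The description of ERRa KO replicate 3 kept its size: 25 members were 2-fold or more higher whichever of the other 5 arrays was left out, 26 against ERRa KO replicates 1 and 2 alone and 19 at 4-fold, and the median ranged from 2.09 to 2.17. Choosing probe sets by the other 5 arrays, an alternative added after seeing the data, gave 25 members, 18 at 4-fold, and a median of 1.69, through Tdo2 alone; it left 1 member and 39 genes changed between genotypes. The count of members changed between genotypes was 1 by mean of probe sets, probe sets, repeated quantile normalization and array weights. It was 0 with all 6 arrays, with the replicate block, above the median level (9 members left, Bhmt not among them), and without each of the 5 arrays (0 to 0). Over all genes the count went from 39 to 90 with all 6 arrays, 7 with the replicate block, 136 above the median level and 4 to 10 when 1 array was left out; from the 90 of the 6-array fit it went to 18 with the block and to 10 to 39 without 1 array. The member median of -0.01 became 0.63 with all 6 arrays, -0.18 above the median level and -0.0551 to 0.0185 without 1 array. The cause of these moves was not tested, and several of the settings also differ in the number of arrays or genes. Under the exchanged heads of the second table the 5-array differences turn: -0.92 for Bhmt, 0.57 for Fga, -0.47 for Plg, 0.32 for Kng1, 0.33 for Ass1 and -0.35 for Hpd.

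The replicate numbers share only a number: deviations of same-numbered arrays correlated at -0.0394, -0.00314 and -0.0779. With the replicate block Bhmt differed by 0.92 (adjusted p = 0.107). Weak signal limits Mug1, Tdo2, Otc, F9 and the other probe set of Fabp1, which read 2.57 to 3.28 outside ERRa KO replicate 3, where RMA compresses differences. Further members were nearly as dim there, among them Mat1a (3.16 to 3.44), Arg1 (3.30 to 3.56), the main probe set of Fabp1 (3.30 to 3.93) and Hpx (3.77 to 3.97). The fold differences of such members rest on these low values.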
